A study of Rattus norvegicus with 12 samples.

Results

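Genes of the Notch pathway were followed in rat astrocytes given epidermal growth factor (EGF), the ligand that activates the EGF receptor. The set held 6 genes, chosen by name from the array's annotation: the receptors Notch1, Notch2 and Notch3, the ligand Jag1, and the target genes Hes1 and Hey1. They were 6 of 14218 genes named by a single symbol on the array and had 7 probe sets, of which all 7 passed the filter on dim probe sets. Where a gene had more than 1 probe set, as only Notch1 of the 6 did, the one with the highest mean signal over the 12 arrays represented it.

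The cells were primary cultures from the optic nerve head, where retinal axons gather and exit at the back of the eye. Of 2 experiments, one exposed cultures to EGF for 4 h and the other for 12 h, each beside control cultures of its own. Each of the 4 groups held 3 arrays. The dose of EGF, the rat strain and the age were not given in the sources used here, and neither was whether replicates were separate cultures, so the p-values measure the spread between these arrays, which may be technical. Groups were read from the sample titles, because the short description of every sample reads as control. Signals are in linear units scaled to a common mean on every array, and log2 differences are on the scale of log2(signal + 24.4), which understates changes of dim genes. All p-values were adjusted over the 18625 probe sets tested and come from limma.

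Notch receptors are single-pass membrane proteins that bind ligands of the Jagged and Delta families on neighbouring cells. Binding lets ADAM metalloproteases and then gamma-secretase cut the receptor, and the freed intracellular part enters the nucleus, where it joins the DNA-binding protein Rbpj and coactivators of the Mastermind family to switch on genes such as those of the Hes and Hey repressors. Without it, Rbpj is bound by corepressors. In the nervous system the pathway is known for holding progenitors undifferentiated and for favouring glial over neuronal fate.

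In the data, the receptor Notch1 rose and the ligand Jag1 fell at 4 h, while the target Hes1 rose at 12 h and did not pass the test at 4 h. Notch2, Notch3 and Hey1 passed the test at neither time. At 4 h, 1 of the 6 genes was called higher and 1 lower, where 11.4% of all tested probe sets were called higher and 16.5% lower. At 12 h, 1 was called higher and 0 lower, against 15.3% and 20.8% of all tested probe sets. The EGF effect differed between the times for 2 of the 6, Jag1 and Hes1, and for 11.6% of all tested probe sets in either direction. A large part of the array was called at both times, but 45.4% was also called between the 2 control groups, neither of which received EGF. The members' counts are too small to be read against these shares.

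Control probe sets told the arrays apart in ways the groups do not explain. A spike-in control, bioD, read 31268.9 to 34315 on the replicate 3 pair at 4 h and 5.6 to 132.5 on the other 10 arrays. The ratio of the 3' to the 5' signal of actin, a sign of how completely the RNA was copied, was 11.1 to 21.7 on 5 of the 12 h arrays. It was 1.20 to 1.61 on the 4 h arrays and on the sixth 12 h array, EGF replicate 3. For the 6 genes, and for the other genes whose signals are printed at 12 h with a call, the 12 h effect is therefore also given without EGF replicate 3, which leaves arrays of high ratio on both sides.

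Cell type markers were checked on the same arrays. Of 11 astrocyte markers on the array 6 passed the filter, with mean signals over 12 arrays of 72429 for Vim, the intermediate filament vimentin, and 67135 for Gja1, the gap junction protein connexin 43. Gfap, the filament protein that usually defines astrocytes, did not pass it, with a mean of 185, and neither did Slc1a2, Aqp4, Aldh1l1 or Pax2. Of the 6 tested, Nes, the progenitor filament nestin, was higher at 4 h (2.37 ± 0.29, adjusted p = 4.5e-05) and at 12 h (2.36 ± 0.29, adjusted p = 3.2e-05), and Glul, glutamine synthetase, was lower at 12 h (-1.28 ± 0.15, adjusted p = 2.8e-05). The other 4 passed at neither time. Notch3 is also known from mural cells, and of 10 other mural and smooth muscle markers 6 passed the filter, with 0 called at 4 h and 1 higher and 2 lower at 12 h. Tagln (-1.88 ± 0.30) and Pdgfrb (-1.11 ± 0.30) were lower, and Cspg4 was higher (2.01 ± 0.40). The 12 h controls of Cspg4 read 23.5 to 147.9, below the filter, so the size of its difference depends on the offset. The summed signal of the 10 markers was 67921 to 79733.6 in the 4 h controls, 53621.7 to 63119.8 with EGF at 4 h, 8409.9 to 19657.1 in the 12 h controls and 4669.5 to 8335.4 with EGF at 12 h, while Myh11, Rgs5, Kcnj8 and Abcc9 were too dim to test. Dll4 and Hey1 are also known from vessels, and of 8 endothelial markers on the array 3 were tested, with Flt1 higher (3.21 ± 0.39 at 4 h, 2.32 ± 0.39 at 12 h) and Tek lower at both times (-1.18 ± 0.19 at 12 h). The mean of Flt1 was 230 in the 4 h controls and 2345 with EGF at 4 h. Its 12 h controls, with a mean of 71.0, lay below the filter, so the size of its 12 h difference depends on the offset. The summed endothelial signal was 3009.2 to 3744.4 in the 4 h controls, 3839.7 to 4255.4 with EGF at 4 h, 2989.9 to 3409.5 in the 12 h controls and 1950 to 2461.1 with EGF at 12 h. Of 3 tested microglial markers Cd68 was higher at 12 h, from a control mean of 62.1 that lies below the filter to 924 with EGF. Its means at 4 h were 47.2 in the controls and 72.4 with EGF. Cd68 thus passed the filter, and was tested, only through the group in which it was high. Of 4 tested markers of the oligodendrocyte lineage 3 were lower at both times, and 0 of 6 neuronal markers passed the filter. Of 5 fibroblast markers 1 was lower at 4 h and 3 at 12 h. Among them Col1a1 and Col1a2 had mean signals over 12 arrays of 50943 and 61998, and Lum and Fap 368 and 281. The summed fibroblast signal was 138835 to 168299 in the 4 h controls and 126266 to 132639 with EGF at 4 h. At 12 h it was 106103 to 137597 in the controls and 55054.8 to 111081 with EGF. Astrocyte markers on the array summed to 125751 to 137964 in the 4 h controls and 133210 to 160578 with EGF at 4 h. At 12 h they summed to 144987 to 151906 in the controls and 139460 to 200642 with EGF. Vim and Gja1, with means of 62763 and 62981 in the 4 h controls, made up most of that sum, so it mainly reads these genes. Of all tested probe sets 11.4% were higher and 16.5% lower at 4 h, and 15.3% and 20.8% at 12 h. The marker counts are too small to be read against these shares. The part of these cell types in the Notch values was not tested, and fewer cells of a type and less RNA per cell cannot be told apart in these bulk samples.

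Promoters are shown for 3 genes called below, because Rbpj, the factor through which Notch reaches DNA, reads a known core sequence. Hes6, also called, is not shown. The sequences are RefSeq's for the rat build GRCr8, 250 bases that end just before the annotated start of the gene, written 5' to 3' in the direction of transcription. Capitals mark TGGGAA, the core of the Rbpj site, or its reverse complement. Hes1, on the minus strand at chr11:84213046-84213295, holds 2 such matches, at 123 to 118 and at 109 to 104 bases before the start. Hey2, a relative of Hey1 on the plus strand at chr1:28640850-28641099, also holds 2, at 175 to 170 bases on the reverse strand and at 60 to 55. Nrarp, on the plus strand at chr3:28390495-28390744, codes for a small ankyrin-repeat protein that is both induced by Notch and known to limit it, and holds 0.
Hes1: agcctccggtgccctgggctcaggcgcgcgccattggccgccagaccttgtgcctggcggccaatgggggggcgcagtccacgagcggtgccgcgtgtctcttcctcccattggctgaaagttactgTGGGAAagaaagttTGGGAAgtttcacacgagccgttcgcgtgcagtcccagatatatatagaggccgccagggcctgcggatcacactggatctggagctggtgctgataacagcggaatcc
Hey2: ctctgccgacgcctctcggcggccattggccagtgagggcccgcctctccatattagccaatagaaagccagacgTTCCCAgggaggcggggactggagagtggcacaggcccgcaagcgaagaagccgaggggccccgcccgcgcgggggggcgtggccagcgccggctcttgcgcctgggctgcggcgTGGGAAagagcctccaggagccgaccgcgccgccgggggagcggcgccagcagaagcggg
Nrarp: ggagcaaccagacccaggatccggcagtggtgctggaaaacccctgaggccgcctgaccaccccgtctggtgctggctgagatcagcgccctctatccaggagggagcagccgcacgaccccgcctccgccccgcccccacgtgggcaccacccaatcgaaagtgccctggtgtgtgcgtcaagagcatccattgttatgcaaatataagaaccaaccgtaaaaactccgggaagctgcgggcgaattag
Over 33469 rat promoters of the same length, 22.1% held TGGGAA on either strand and 2.71% held it 2 or more times. Windows of Notch1, Notch2, Notch3 and Jag1 held 0 matches. The N box CACNAG, a site bound by Hes repressors and searched on both strands, occurred 4 times for Hes1, 4 times for Notch1, 2 times for Nrarp and 1 time for Notch3. It occurred in 37.2% of all promoters, and 2 or more times in 8.02%. The Notch1 matches at 28 to 23 and at 26 to 21 bases before the start overlap, on opposite strands. The AP-1 motif TGANTCA, the palindromic site of Fos and Jun dimers, occurred in 6.34% of all promoters and 0 times in the windows of these 7 genes. A match is only a run of letters, and the arrays measured no binding.

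Notch1 is the receptor best known from neural progenitors. In the 4 h controls its signals were 282.9, 255.6 and 480.0, and with EGF for 4 h they were 982.2, 805.9 and 987.0. All 3 EGF arrays stood above all 3 control arrays. The ratio of the means was 2.72, and the log2 difference was 1.43 ± 0.27 (SE, n = 3 against 3, adjusted p = 0.0013). At 12 h the controls read 600.8, 729.6 and 451.6 and the EGF arrays 869.7, 598.9 and 759.8, so the groups overlapped, with a log2 difference of 0.32 ± 0.27 (adjusted p = 0.37, 95% interval -0.25 to 0.89). Without EGF replicate 3 it was 0.30 (adjusted p = 0.47). The 4 h control was the lowest of the 4 groups, with a mean of 339 ± 122 (SD, n = 3), followed by the 12 h control at 594 ± 139, EGF at 12 h at 743 ± 136 and EGF at 4 h at 925 ± 103, and arrays of neighbouring groups in this order overlapped. The change in the EGF effect, -1.11 ± 0.38 from 4 h to 12 h, did not pass the test (adjusted p = 0.076).

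A second probe set for Notch1 gave the same calls. At 4 h it read 366.5, 152.1 and 335.6 in the controls and 625.6, 574.1 and 750.2 with EGF, again without overlap. Its log2 difference was 1.20 ± 0.29 at 4 h (adjusted p = 0.0079) and 0.24 ± 0.29 at 12 h (adjusted p = 0.56). The 12 h controls read 449.8, 635.6 and 451.6, within which range lay the EGF arrays at 592.9, 605.6 and 604.8.

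Notch2, the receptor often studied in glia and in the vascular wall, passed the test at neither time, and its 12 h signals differed widely between arrays. Its signals were 522.7, 274.4 and 445.4 in the 4 h controls and 508.2, 550.9 and 514.9 with EGF at 4 h, a log2 difference of 0.37 ± 0.67 (adjusted p = 0.73). At 12 h the controls read 120.1, 9.2 and 12.8 and the EGF arrays 45.2, 88.2 and 425.8. The groups overlapped at both times, and the single high array at 12 h was EGF replicate 3. All 3 of the 12 h controls and EGF replicates 1 and 2 lay below the filter of 215, which the gene passed through its other arrays, so its 12 h differences depend on the offset. The 12 h log2 difference was 1.43 ± 0.67 (adjusted p = 0.11), with an interval of -0.02 to 2.87. Without EGF replicate 3 it was 0.65 (adjusted p = 0.43). It passed the test when 12 h control replicate 1 was left out (2.11, adjusted p = 0.029) or 12 h EGF replicate 1 (1.99, adjusted p = 0.034), so single arrays decided the call.

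Set beside the actin ratio, Notch2 fell into the same sets as the control probe sets. On the 5 arrays with a ratio of 11.1 to 21.7 its signal was 9.2 to 120.1. On the other 7 arrays, with ratios of 1.20 to 1.61, it was 274.4 to 550.9. The ranges did not overlap, and EGF replicate 3 at 12 h lay with the 4 h arrays. The part of RNA quality or copying in the Notch2 signal was not tested.

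**Figure D1:**
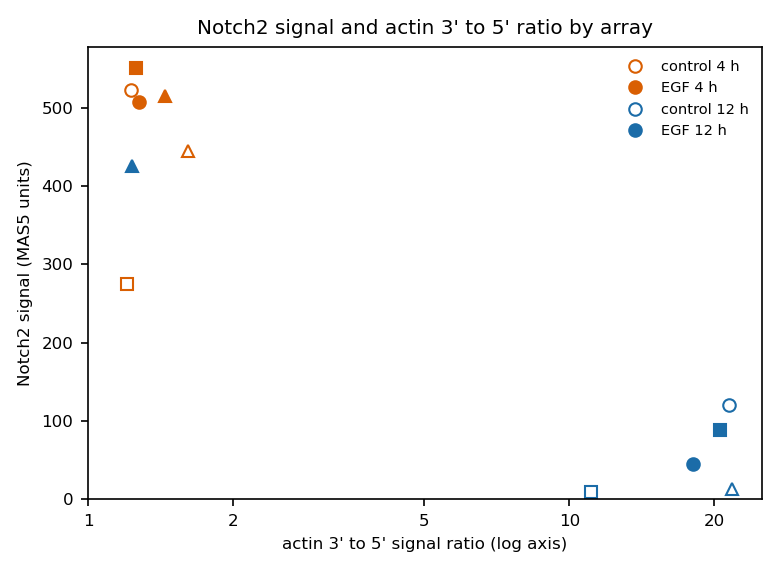
Notch2 signal in linear array units (vertical axis) against the 3' to 5' signal ratio of actin (horizontal log axis), 1 point per array, with circles, squares and triangles for replicates 1, 2 and 3, open for control and filled for EGF. The 5 arrays at ratios of 11.1 to 21.7 lie at 9.2 to 120.1, and the other 7 lie at 274.4 to 550.9.

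Notch3, the receptor of vascular smooth muscle and pericytes, showed overlapping signals in every group. The 4 h controls read 280.4, 318.1 and 400.5 and the EGF arrays 279.3, 291.2 and 339.8. At 12 h the controls read 327.9, 301.8 and 272.8 and the EGF arrays 274.6, 219.2 and 375.4. The log2 differences were -0.12 ± 0.28 at 4 h (adjusted p = 0.80, interval -0.72 to 0.49) and -0.08 ± 0.28 at 12 h (adjusted p = 0.85, interval -0.68 to 0.53). The 12 h value was -0.27 without EGF replicate 3 (adjusted p = 0.54). Group means lay between 290 ± 79 (EGF at 12 h) and 333 ± 61 (control at 4 h, both SD, n = 3), and no neighbours in that order differed beyond their spread.

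Jag1, a ligand that cells present to the Notch receptors of their neighbours, was lower after 4 h of EGF. Its 4 h controls read 6763.7, 7847.7 and 6600.3, and the EGF arrays 3960.8, 3738.3 and 3638.2. All 3 EGF arrays lay below every other array of the study, of which the lowest read 4689.1. The control mean was 1.87 times the EGF mean, and the log2 difference was -0.90 ± 0.20 (adjusted p = 0.0041). After 12 h the controls read 7481.8, 6773.6 and 6108.9 and the EGF arrays 7683.3, 9119.2 and 4689.1, which overlapped, with a log2 difference of 0.03 ± 0.20 (adjusted p = 0.92, interval -0.39 to 0.45). EGF replicate 3 was the low array at 12 h, and without it the 12 h difference was 0.31 (adjusted p = 0.074).

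The EGF effect on Jag1 changed by 0.92 ± 0.28 from 4 h to 12 h (adjusted p = 0.047). This call was lost in 15 of 21 alternative settings, in which the value was 0.72 to 1.00 and stayed above 0. In order of level, EGF at 4 h had the lowest mean, 3779 ± 165 (SD, n = 3), and the other 3 groups, with means of 6788 ± 687 (control at 12 h), 7071 ± 678 (control at 4 h) and 7164 ± 2260 (EGF at 12 h), overlapped.

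**Figure D2:**
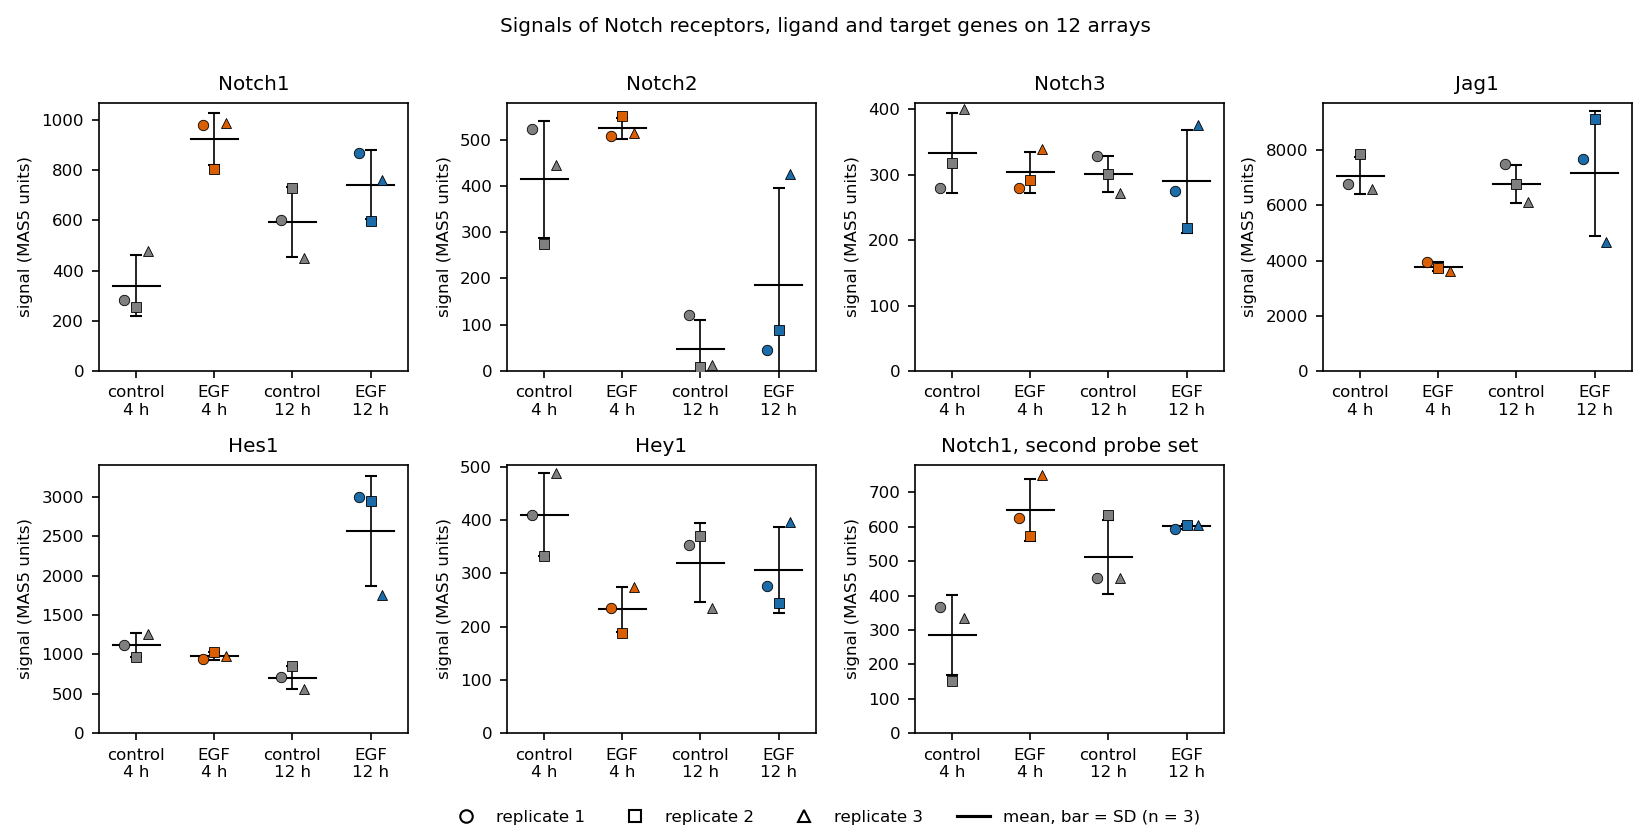
Signals in linear array units (vertical axes, from 0) of the 6 genes and of the second Notch1 probe set in the 4 groups, with circles, squares and triangles for replicates 1, 2 and 3, a line at the mean and bars of 1 SD (n = 3, cut at 0 for Notch2). The EGF arrays stand clear of their controls for Notch1 (above) and Jag1 and Hey1 (below) at 4 h and for Hes1 (above) at 12 h.

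Hes1, the basic helix-loop-helix repressor that is the classical target of Notch, rose at 12 h. Its 12 h controls read 705.4, 850.9 and 555.9, and the EGF arrays 3001.1, 2946.1 and 1758.3. Each of the 3 EGF arrays lay above all 9 other arrays, of which the highest read 1263.9. The ratio of the means was 3.65, and the log2 difference was 1.81 ± 0.22 (adjusted p = 3.3e-05). EGF replicate 3 was the lowest of its group, and without it the difference was 2.06 (adjusted p = 1.0e-06). At 4 h the controls read 1119.6, 970.1 and 1263.9 and the EGF arrays 935.9, 1035.4 and 977.2, and these overlapped, with a log2 difference of -0.17 ± 0.22 (adjusted p = 0.61, interval -0.65 to 0.30).

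The rise in the EGF effect on Hes1 between the times was 1.99 ± 0.31 (adjusted p = 0.0014), and it passed the test in all 21 alternative settings. From low to high the group means were 704 ± 147 (control at 12 h), 983 ± 50 (EGF at 4 h), 1118 ± 147 (control at 4 h) and 2569 ± 702 (EGF at 12 h, all SD, n = 3). The 4 h groups overlapped, while the 12 h control arrays lay below all 4 h arrays.

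Hey1, a repressor related to Hes1 and known from blood vessels as well as glia, was lower on the EGF arrays at 4 h without passing the test. The 4 h controls read 408.9, 333.1 and 488.7 and the EGF arrays 234.5, 188.8 and 273.4. The arrays did not overlap, and the log2 difference was -0.76 ± 0.30 (adjusted p = 0.077, interval -1.41 to -0.11). It passed the test with the array set as a block (adjusted p = 0.045) and with variance moderation without a trend (adjusted p = 0.034), and over all alternatives the adjusted p ran from 0.034 to 0.22. After 12 h the controls read 354.0, 370.9 and 235.7 and the EGF arrays 276.8, 244.4 and 396.8, with a log2 difference of -0.06 ± 0.30 (adjusted p = 0.89), or -0.25 without EGF replicate 3 (adjusted p = 0.60). In order of level, the mean was 232 ± 42 with EGF at 4 h, 306 ± 80 with EGF at 12 h, 320 ± 74 in the 12 h control and 410 ± 78 in the 4 h control (SD, n = 3), and neighbours in this order overlapped.

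**Figure D3:**
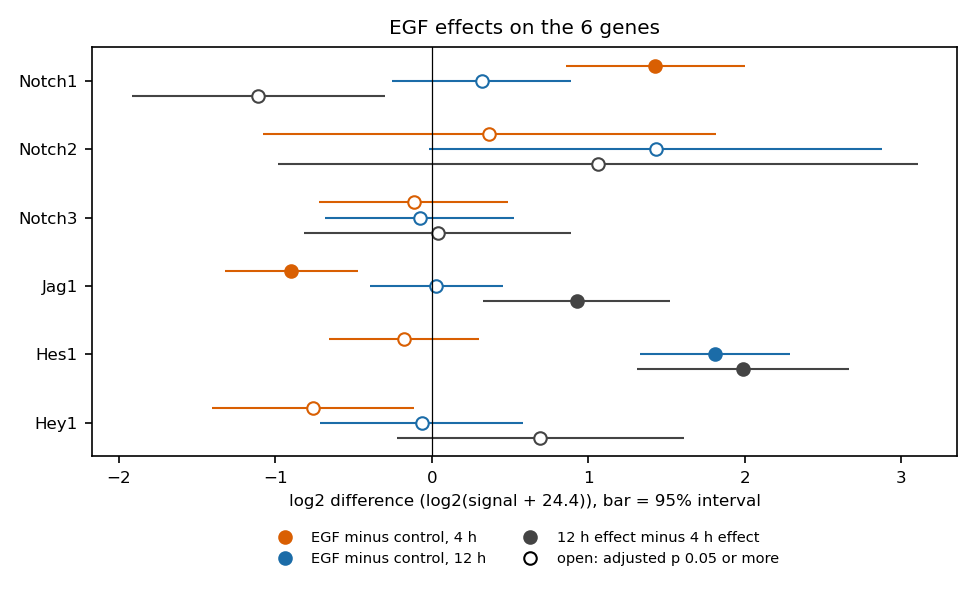
Log2 difference of EGF from control at 4 h and 12 h, and the 12 h effect minus the 4 h effect, for the 6 genes (horizontal axis, log2(signal + 24.4); bars are 95% intervals of the fit; filled points passed the adjusted p threshold of 0.05). Notch1 (1.43) and Jag1 (-0.90) are filled at 4 h, Hes1 (1.81) at 12 h, and Jag1 (0.92) and Hes1 (1.99) for the difference between times.

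The controls of the experiments also differed from each other. Notch1 was higher in the 12 h control than in the 4 h control by 0.79 ± 0.27 (log2, adjusted p = 0.027), while the difference for Hes1 was -0.66 ± 0.22 (adjusted p = 0.027). Over all tested probe sets 45.4% were called between the controls. Leaving out control replicate 1 of either experiment ended both calls. That of Notch1 was also lost without control replicate 2 of either (adjusted p up to 0.11), and that of Hes1 without control replicate 3 of either (adjusted p up to 0.11). Notch2 read 274.4 to 522.7 in the 4 h controls and 9.2 to 120.1 in the 12 h controls, and no difference is given because the latter lie below the filter. Time in culture, experiment and array set cannot be told apart here, so the 4 h and 12 h levels of a gene are not directly comparable, and the control at each time enters the EGF effect at that time.

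Other genes of the pathway were taken from a list of 62, of which 51 were on the array and 42 had a tested probe set. At 4 h 8 of the 42 were higher and 6 lower (33.3% called, beside 27.8% of all tested probe sets), with a median log2 difference of -0.22 beside -0.15 over all tested probe sets. At 12 h 5 were higher and 13 lower (42.9% called, beside 36.1%), with a median of -0.16 beside -0.06. Both shares lie near those of the whole array. With each array centred on its median the counts were 10 higher and 3 lower at 4 h and 5 and 10 at 12 h. That centring moved the median of all tested probe sets at 4 h to -0.04 and the share of their calls that were higher from 40.8% to 53.1% at 4 h and from 42.3% to 52.6% at 12 h. In the array set fit 25 of the 42 genes were called at 4 h, and 9 without control replicate 2 at 4 h.

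Other ligands and the fourth receptor were mostly too dim to test. Of 6 ligands on the array, Dll4, a Delta ligand best known from sprouting vessels, was the only one tested. It read 356.9, 426.2 and 319.4 in the 4 h controls and 139.5, 175.8 and 229.3 with EGF, without overlap, and its log2 difference of -0.94 ± 0.36 did not pass the test (adjusted p = 0.066). Jag2, Dll1, Dll3, Dlk1, Dlk2 and Notch4 fell below the filter. Among the ligases that drive ligand endocytosis, Mib2 was lower at 12 h (-0.75 ± 0.20, adjusted p = 0.010) and the other tested gene, Neurl1, passed at neither time. Of 4 tested enzymes that glycosylate the receptors, Poglut1 was lower at 4 h (-0.41 ± 0.14, adjusted p = 0.041), and the nearest to a call at 12 h was the fringe enzyme Rfng (-0.42 ± 0.16, adjusted p = 0.057). Without EGF replicate 3, Rfng passed at 12 h (-0.45, adjusted p = 0.049). A second probe set of Rfng differed by 0.19 at 12 h (adjusted p = 0.73).

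Proteases that mature and cut the receptor moved in both directions, with 2 of 7 higher and 1 lower at 4 h and 2 higher and 2 lower at 12 h, where 11.4% and 16.5% of all tested probe sets were higher and lower at 4 h and 15.3% and 20.8% at 12 h. Adam10, the main sheddase of ligand-bound Notch, read 597.9, 635.6 and 469.8 in the 12 h controls and 1015.3, 909.2 and 2941.5 with EGF. No array overlapped, and the log2 difference was 1.28 ± 0.34 (adjusted p = 0.0099). EGF replicate 3 was the high array, and without it the difference was 0.75 (adjusted p = 0.0076). The other calls are named after their values were seen. Adam17, a related sheddase, was higher at 4 h (0.74 ± 0.20). At 12 h Adam17 did not pass the main fit (0.12 ± 0.20, adjusted p = 0.69), while it did without EGF replicate 3 (0.39, adjusted p = 0.041). Furin, which cleaves the receptor before it reaches the surface, was higher at 4 h (0.97 ± 0.23) and 12 h (0.73 ± 0.23). Of the gamma-secretase subunits, Ncstn fell by 0.48 at 4 h and fell by 0.67 at 12 h on the log2 scale, Psenen fell by 0.83 at 12 h, and Psen2 and Aph1a passed at neither time. A second probe set of Ncstn passed at neither time (-0.49 and -0.02).

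Rbpj, the DNA-binding protein of the pathway, was higher at both times. Its signals were 8816.9, 8788.3 and 10728.1 in the 4 h controls and 15987.2, 15416.7 and 17514.6 with EGF, and 10496.6, 10092.6 and 12084.6 against 17519.8, 17023.6 and 14445.6 at 12 h. Groups did not overlap at either time, and the log2 differences were 0.79 ± 0.13 (adjusted p = 5.0e-04) and 0.58 ± 0.13 (adjusted p = 0.0031), the latter 0.67 without EGF replicate 3 (adjusted p = 6.1e-04). All 3 of its probe sets were called higher at both times. Of the other nuclear factors, the acetyltransferase Kat2b was lower at both times (-0.70 ± 0.18 and -0.75 ± 0.18). Its second probe set passed at neither time (-1.23 at 4 h, adjusted p = 0.14, and 0.23 at 12 h, adjusted p = 0.79). The 12 h means of that probe set, 182 in the controls and 193 with EGF, lie below the filter. Named after their values were seen, Maml2, a Mastermind coactivator, was higher at 4 h (0.41 ± 0.14), and Maml1 (-0.65 ± 0.18) and the acetyltransferase Ep300 (-0.52 ± 0.19) were lower at 12 h. The Ep300 call was lost without EGF replicate 3 (-0.43, adjusted p = 0.097). A second probe set of Ep300 differed the other way at 12 h without passing (0.66, adjusted p = 0.13), from controls of 120.0 to 144.8, below the filter. At 12 h Maml2 differed by -0.35 without passing (adjusted p = 0.068), and passed without EGF replicate 3 (-0.43, adjusted p = 0.024). Other tested probe sets of Maml2 did not pass in the main fit. Among the leading probe sets of 6 tested cytoplasmic regulators 0 passed at either time, although a second probe set of Numb was higher at 12 h (1.28, adjusted p = 0.038) where the leading one differed by -0.32. The 12 h controls of that second probe set read 97.8 to 142.1, below the filter, so its 12 h difference depends on the offset. Its 12 h EGF arrays ran from 168.2 to 810.4 with a median of 243.3, so 1 array stood far above the others. Of these regulators, the ubiquitin ligase Dtx1 came nearest at 4 h (1.18 ± 0.45, adjusted p = 0.067). The 4 h controls of Dtx1, 52.5 to 272.7, overlapped the EGF arrays at 224.1 to 403.6. Their mean of 137 lies below the filter, so the size of its 4 h difference depends on the offset. Numbl, a Numb relative, had differences of -0.32 ± 0.17 at 4 h and 0.24 ± 0.17 at 12 h.

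Corepressors of the Groucho family, the Tle proteins that Hes repressors recruit, differed among themselves. Tle1, named after its values were seen, was higher at both times (0.75 ± 0.19 and 0.80 ± 0.19), and its change between times did not pass (0.06, adjusted p = 0.92). Tle3 read 1805.5, 1403.6 and 1469.6 in the 4 h controls and 5154.2, 4470.9 and 4486.0 with EGF, and then 3439.3, 3508.2 and 3221.6 against 2182.0, 1673.6 and 1761.6 at 12 h. It was above its controls on all EGF arrays at 4 h and below them on all at 12 h, with log2 differences of 1.58 ± 0.15 (adjusted p = 4.1e-06) and -0.86 ± 0.15 (adjusted p = 5.0e-04), the latter -0.82 without EGF replicate 3 (adjusted p = 6.0e-04). Tle2 read 2789.2, 2578.5 and 2546.5 in the 12 h controls and 774.2, 680.3 and 609.7 with EGF, a log2 difference of -1.91 ± 0.23 (adjusted p = 2.6e-05) without overlap. It was -1.83 without EGF replicate 3 (adjusted p = 3.8e-05). At 4 h Tle2 differed by -0.64 ± 0.23, which did not pass (adjusted p = 0.053). With the replicate block it did (adjusted p = 0.035), and over all alternatives its adjusted p ran from 0.0078 to 0.23. Spen, a corepressor that binds Rbpj itself, read 3393.1, 3541.7 and 3208.6 in the 12 h controls and 1336.9, 1590.2 and 2131.9 with EGF. All EGF arrays were below, and the log2 difference was -1.02 ± 0.24 (adjusted p = 0.0047), a call lost when its probe sets were averaged (-0.81, adjusted p = 0.053) and kept without EGF replicate 3 (-1.20, adjusted p = 9.1e-04). Of all 10 tested corepressors 3 were higher and 1 lower at 4 h (11.4% and 16.5% of all tested probe sets), and 1 higher and 5 lower at 12 h (15.3% and 20.8%).

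**Figure D4:**
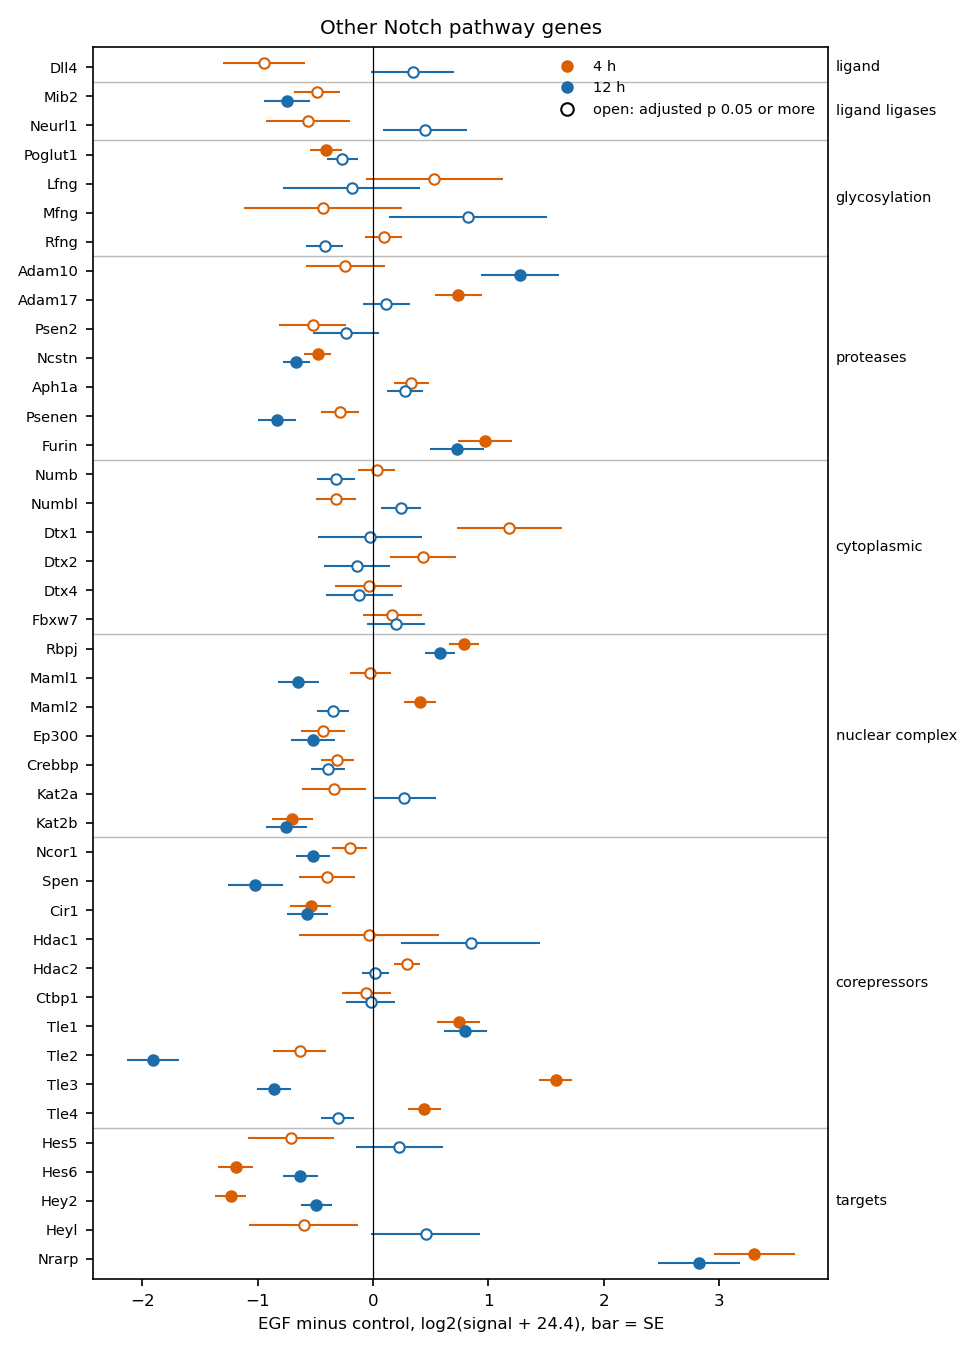
Log2 difference of EGF from control (horizontal axis, log2(signal + 24.4); bars are SE) at 4 h and 12 h for the 42 tested genes of the list, grouped by role and filled where the adjusted p was under 0.05. Nrarp lies farthest to the right at both times, Hes6 and Hey2 to the left at 4 h, and Tle3 changes sides between 4 h and 12 h.

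Other genes of the Hes and Hey family and the target Nrarp diverged. Nrarp read 282.8, 357.6 and 149.1 in the 4 h controls and 2707.9, 2511.4 and 2818.4 with EGF, and 64.0, 155.0 and 156.4 against 1408.6, 725.8 and 927.3 at 12 h. The groups did not overlap at either time, and the log2 differences were 3.31 ± 0.35 (adjusted p = 1.5e-05) and 2.83 ± 0.35 (adjusted p = 3.8e-05). The 12 h controls lie below the filter, which the probe set passed through its EGF arrays, so the size of the 12 h difference depends on the settings: it was 2.32 with an offset of 96.8, 2.11 with probe sets averaged and 2.87 without EGF replicate 3. A second tested probe set for Nrarp was also higher at 4 h (2.52), but its 12 h difference of 1.39 did not pass (adjusted p = 0.065).

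Hey2 fell, and from the 4 h controls at 24338.7, 28090.5 and 25847.9 the EGF arrays were down at 11578.8, 12150.8 and 9624.3. At 12 h it read 9432.6, 10925.0 and 9783.8 in the controls and 8195.8, 7010.6 and 6280.5 with EGF, and the groups did not overlap at either time. Its log2 differences were -1.23 ± 0.13 at 4 h (adjusted p = 1.8e-05) and -0.49 ± 0.13 at 12 h (adjusted p = 0.011). The 12 h call was lost with median centring (-0.39, adjusted p = 0.058) and without control replicate 2 at 12 h (-0.43, adjusted p = 0.055), and kept without EGF replicate 3 (-0.40, adjusted p = 0.024). Hes6, a Hes relative known to counter Hes1, read 4232.7, 4797.0 and 4384.0 in the 4 h controls and 1932.6, 1824.2 and 2078.8 with EGF. All EGF arrays of Hes6 were below, with log2 differences of -1.19 ± 0.15 at 4 h (adjusted p = 7.5e-05) and -0.63 ± 0.15 at 12 h (adjusted p = 0.0057), the latter -0.53 without EGF replicate 3 (adjusted p = 0.011). Hes5 and Heyl passed at neither time, with log2 differences of -0.71 ± 0.38 and -0.60 ± 0.47 at 4 h.

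**Figure D5:**
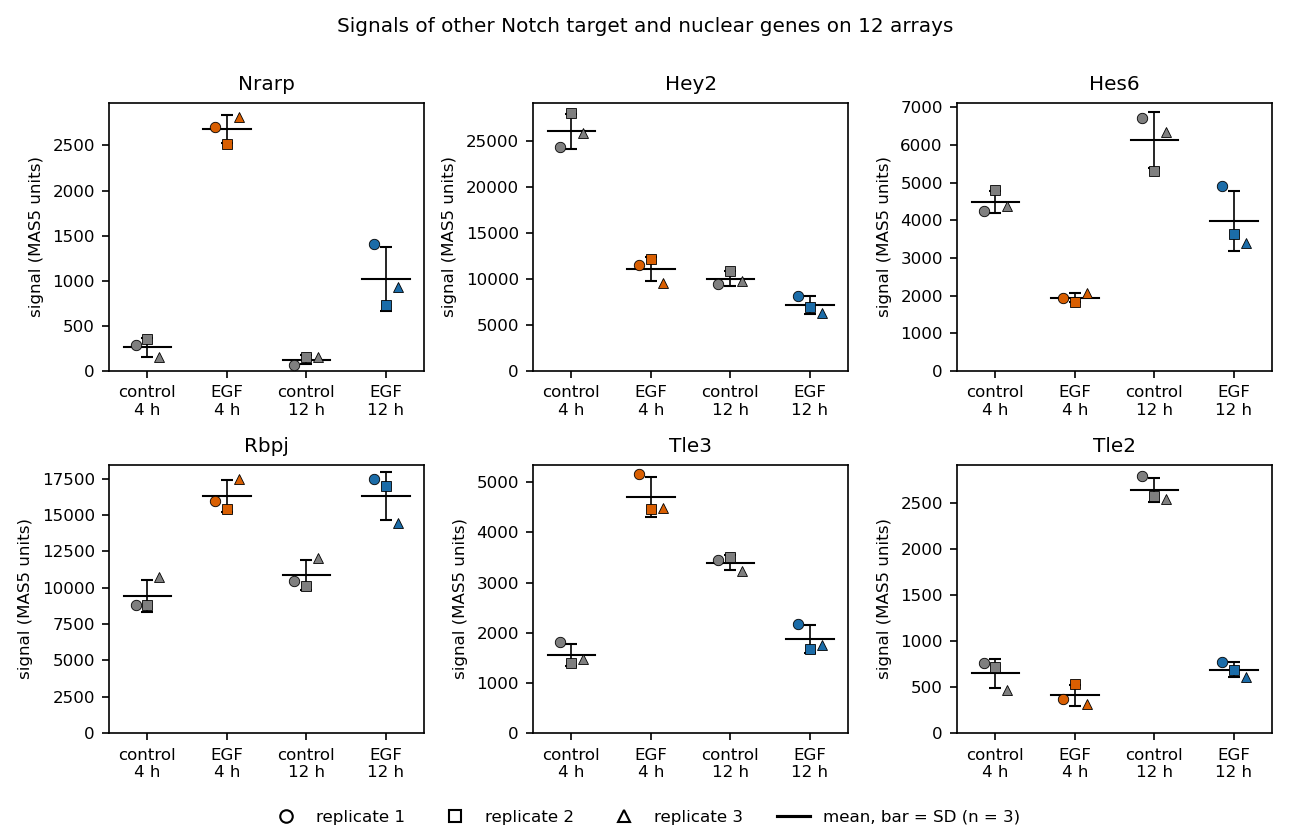
Signals in linear array units (vertical axes, from 0) of Nrarp, Hey2, Hes6, Rbpj and 2 corepressors in the 4 groups. Circles, squares and triangles are replicates 1, 2 and 3, with a line at the mean and bars of 1 SD (n = 3). Nrarp stands above its controls at both times, Hey2 and Hes6 below, and the Tle3 groups trade places between 4 h and 12 h.

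Of the promoters shown, matches to the Rbpj core and directions were as follows. Hes1, with 2 matches, rose at 12 h, Hey2, with 2 matches, fell at both times, and Nrarp, with 0, rose at both times.

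The genes whose signals followed each member most closely over the 12 arrays were ranked by Pearson's r among 10260 other genes, as a description in which all points share arrays and groups. For Notch1 they were Csnk1e (0.950), Pspc1 (0.924) and Adgrg6 (0.916). Those nearest to Notch2 were Grpel1 (0.972), Pik3r1 (0.968) and Rxra (0.956). The Notch2 signals split by the actin ratio, as given above, and the part of the array sets in these correlations was not tested. Notch3 had Krt33b (0.905), Fkbpl (0.873) and Shoc2 (0.855), the lowest leading value of the 6 members. Jag1 was followed by Ccng1 (0.947), Irak1bp1 (0.946) and Dtna (0.925). Signals of Cdr2 (0.957), Rab33b (0.942) and Slc35b1 (0.939) ran closest to Hes1, and those of Lipa (0.968), Brme1 (0.860) and Cnot8 (0.855) to Hey1. The EGF effect on Cdr2 was 0.17 at 4 h and 1.81 at 12 h, beside -0.17 and 1.81 for Hes1.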

How the data were processed

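Total RNA of 12 samples was measured on 1-colour Affymetrix arrays with 31099 probe sets. What the authors deposited is a linear intensity per probe set, computed with MAS5 per the submitters' processing notes; the version is not given in the sources used here. On each array the 2% trimmed mean lay between 1499 and 1500 and the median signal between 305.5 and 415.2, and no rescaling was done. Every one of the 12 columns entered the fit, and no pair of columns was identical. The number of arrays limits the precision.

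After leaving out 57 control probe sets, 18625 probe sets were tested, those whose mean signal reached the 40th percentile (215), and 12417 dimmer ones were not. An offset of 24.4, the 10th percentile of signals, went into the log2. Means of the 4 groups were fitted over all 12 arrays with limma 3.58.1 in R 4.3.3 (lmFit, and eBayes with an intensity trend, 8 residual degrees of freedom), two-sided, with Benjamini-Hochberg adjustment and a threshold of 0.05. The spread is pooled over the groups. The fit was tested on simulated data. Plots used matplotlib 3.10.9.

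In the platform annotation 20832 probe sets have 1 symbol, 436 have several and 9831 have none, and 20764 matched the current rat gene table by gene identifier. Promoters came from RefSeq (GRCr8) by symbol, and 5 of the 6 members matched. Hey1 is named only.

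The members and the lists were chosen with earlier results of these data known. Pathway genes are named where they passed the threshold with an absolute log2 fold change of at least 1 at either time, and otherwise up to 2 per role with the smallest p; likeness names 3 genes per member. The alternatives were another offset (96.8), no filter, 2 other scalings, no trend, averaged probe sets, a replicate block, an array set block, and leaving out each array or the replicate 3 pair at 4 h. With group means removed, same-numbered EGF and control arrays had correlations of 0.121, 0.150 and 0.376 at 4 h, which pairs them by the rule that every pair be above 0.1, although replicates 1 and 2 correlated as much across numbers (0.138 and 0.142). At 12 h the values were 0.083, -0.111 and -0.103.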

Additional observations from a re-analysis of the deposited data

Results flagged for a closer look

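Of the 6 Notch genes, Jag1 and Hes1 were picked out because the test of the difference between the EGF effects at 12 h and 4 h passed the threshold in limma. The difference was 0.92 for Jag1 (adjusted p = 0.047), from a fall at 4 h to a 12 h value near 0. That call was lost in 15 of 21 alternative settings, and the 12 h value was 0.31 without EGF replicate 3 at 12 h. For Hes1 the difference was 1.99 (adjusted p = 0.0014), and its rise was seen at 12 h.

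By the same test, 5 other genes of the pathway were picked out. Hey2 had a difference of 0.74 (adjusted p = 0.023), a smaller fall at 12 h than at 4 h. That call was lost in 5 of 21 alternative settings (adjusted p up to 0.074): without the trend, without the replicate 3 pair at 4 h, and without control replicate 2 at 4 h, control replicate 1 at 12 h or control replicate 3 at 12 h. The Tle corepressors had differences of -2.44 for Tle3 (adjusted p = 1.6e-05), -1.27 for Tle2 (adjusted p = 0.022) and -0.75 for Tle4 (adjusted p = 0.031), and the coactivator Maml2 one of -0.76 (adjusted p = 0.025). The Tle2 call was lost in 3 of 21 settings (adjusted p up to 0.062): without EGF replicate 2 at 4 h, or control replicate 1 or 2 at 12 h. The Tle4 and Maml2 calls each rest on 1 probe set, since another of Tle4 had -0.03 (adjusted p = 0.97) and the others of Maml2 had 0.23 and 0.22 (adjusted p = 0.84 and 0.67). The 2 times were separate experiments, so a difference between times and one between experiments cannot be told apart.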

How the results depend on the processing

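Of 378 alternative values of the members' 18 effects, 336 kept direction and side of the threshold, 15 lost the call, 8 gained it and 19 changed sign. The calls for Notch1 and Jag1 at 4 h and for Hes1 at 12 h and between times held in all 21 settings. Leaving out EGF replicate 3 at 12 h changed no member's call at 12 h. With the replicate block, Notch1 at 4 h had an adjusted p of 0.0040, Jag1 at 4 h 0.0034 and Hes1 at 12 h 7.9e-05; this paired fit changed no member's call and, of the other genes named with alternatives, only that of Tle2 at 4 h. No paired analysis was possible between the controls because replicate numbers were blocked within each experiment.

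The array set block called 25 of the 42 other pathway genes at 4 h, and leaving out 1 array 9 to 17. At 12 h it called 2 members, adding Jag1 (0.31, adjusted p = 0.043), and leaving out 1 array called 1 to 2, adding Notch2, whose value ran from 0.65 to 2.11. For the difference between times, 1 member was called with no filter, with median centring, without the replicate 3 pair at 4 h and with no trend, and 1 to 2 leaving out 1 array. Jag1 lost that call at 0.92 (no filter, adjusted p = 0.063, and no trend, 0.086), 0.92 (median centring, 0.076) and 0.95 (without the pair, 0.11), and ran from 0.72 to 1.20 leaving out 1 array. Notch1 gained it with quantile normalization (-1.20) and the array set block (-1.13), and ran from -1.37 to -0.94. Between the controls, 1 to 3 members were called leaving out 1 array, in counts that include Notch2, whose 12 h control signals lie below the filter; its value was -1.88 with an offset of 96.8. Hey1 at 4 h gained the call at -0.76 with the array set block and with no trend.

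Uncalled values near 0 changed sign. Notch3 turned to 0.089 at 4 h and to -0.12 between times with quantile normalization, to 0.023 at 12 h with median centring, and between times to -0.15 with the array set block and to -0.015 without the pair. Leaving out 1 array, it ran from -0.22 to 0.017 at 4 h, from -0.27 to 0.092 at 12 h and from -0.15 to 0.21 between times. At 12 h Hey1 became 0.036 with median centring and ran from -0.25 to 0.072, and Jag1 became -0.0039 with quantile normalization and ran from -0.17 to 0.31. Causes of these shifts were not tested. Dim genes such as Notch2 depend on the offset: its 12 h difference was 0.82 with an offset of 96.8.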
